A study of Homo sapiens with 12 samples.

Results

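The 10 genes described here are TXNIP, ARRDC2, ARRDC3, ARRDC4, MLX, MLXIP, DDIT4, DEPP1, MXI1 and FOXO3. They were taken by gene symbol from the table of 60664 genes, each symbol was found on 1 row, and all 10 passed the filter on low counts in every comparison. RNA was measured in MDA-MB-231, an established human cell line from a triple-negative breast cancer, in 3 groups of 4 libraries. The first group was wildtype (WT) cells kept untreated in normoxia, and the second was WT cells held for 24 hr in a hypoxia chamber, at 1% O2 by the study's methods. The third was CCAR2 KO cells (CCAR2-/-) kept untreated in normoxia, which were made with LentiCRISPR. CCAR2 encodes DBC1, a nuclear protein that binds and restrains the deacetylase SIRT1. The labels do not say whether the KO cells are 1 clone, so a difference of the KO cells from WT cells and a difference of that line cannot be told apart. The labels do not say whether the 4 libraries of a group came from separate cultures, and the p-values measure the spread between these libraries, which may be technical. Hypoxia was compared with normoxia to learn what low oxygen changes, and KO cells with WT cells to learn what changes without CCAR2.

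TXNIP and the ARRDC proteins are alpha-arrestins, adaptor proteins that bring ubiquitin ligases of the NEDD4 family to membrane proteins. TXNIP binds thioredoxin and slows glucose uptake by taking glucose transporters off the cell surface. Its gene is a classic target of MLXIP (MondoA), a sensor of glucose phosphates that binds DNA together with its partner MLX at paired E-box-like elements called carbohydrate response elements. DDIT4 (REDD1) is a stress-induced inhibitor of the growth kinase complex mTORC1 and a known target of hypoxia-inducible factors. DEPP1 is a known target of FOXO transcription factors such as FOXO3, and MXI1 pairs with MAX and opposes MYC.

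The labels were checked first. CCAR2 was at 146 ± 3.11 CPM (SD, n = 4) in WT normoxia and 57.8 ± 2.81 CPM in KO cells, a log2 fold change of -1.34 (SE 0.04, adjusted p = 2.135e-09), so the transcript was lower but not lost. CA9, a hypoxia marker, went from 0.0649 ± 0.0232 CPM in normoxia to 4.90 ± 0.399 CPM under hypoxia. CCAR2 shares 1397 exonic bases with AC037459.3 and 1097 with BIN3 on the opposite strand. CA9 shares 643 exonic bases with ARHGEF39, also on the opposite strand. The use of strand in the counting is not known, and without strand reads from the shared bases cannot be told apart. CPM here stands for the count after scaling every library to the same TMM-adjusted total. The deposited values summed to between 153904088 and 213743693 per library in WT normoxia, between 76384973 and 195621872 in hypoxia and between 68599412 and 152328450 in KO cells. Hypoxia replicates 1 and 2 had the lower sums of their group, 76384973 and 83773680, against 161509752 and 195621872 for replicates 3 and 4. All 6 markers chosen for MDA-MB-231 were above 1 CPM in every library, and their summed level was between 7232 and 7468 CPM in WT normoxia, between 6678 and 7126 CPM in hypoxia and between 7754 and 8238 CPM in KO cells. Of these, FN1 rose 2.94-fold in KO cells, from a mean of 413 to 1215 CPM (adjusted p = 3.148e-08), and ZEB1 was lower in hypoxia (-0.52, adjusted p = 0.00122). AXL and CD44 went the other way from FN1 in KO cells. Their log2 fold changes were -0.23 (adjusted p = 6.32e-04) and -0.20 (adjusted p = 0.00504). VIM, ZEB1 and SPARC did not pass the test in KO cells, so the higher sum there does not stand for the markers as a set. Of 9 luminal markers, 4 were above 1 CPM in every WT library and 5 in every KO library, and nearly all of their sum was KRT18, while ESR1 was at most 0.4703 CPM in any library and TFF1 was at 0 in every WT library and at a mean of 0.114 CPM in KO cells. GREB1, another luminal marker, had means of 1.34 CPM in WT normoxia and 2.71 CPM in KO cells and was called higher (log2 fold change 1.01, adjusted p = 3.181e-04), and GATA3 had means of 5.93 and 7.09 CPM (0.26, adjusted p = 0.0946). The summed luminal level was between 623.8 and 694.2 CPM in WT normoxia, between 625 and 784.1 CPM in hypoxia and between 559.4 and 591.2 CPM in KO cells. The summed level of 4 fibroblast markers was between 13.6 and 14.9 CPM in WT normoxia, between 11.8 and 17.5 CPM in hypoxia and between 19.1 and 22.5 CPM in KO cells, nearly all of it COL1A1, with LUM at 0 in hypoxia and DCN at 0 in KO cells. That of 3 endothelial markers was between 2.35 and 3.46 CPM, between 3.43 and 5.29 CPM and between 5.21 and 5.91 CPM, most of it PECAM1. That of 4 leukocyte markers stayed between 0.608 and 1.39 CPM in all libraries. In KO cells COL1A1 was called higher than in WT normoxia (log2 fold change 0.56, adjusted p = 6.155e-05). So were PECAM1 (1.11, adjusted p = 8.896e-05) and the leukocyte marker CD14 (0.67, adjusted p = 0.0292). PTPRC (-1.59, adjusted p = 0.0523) and VWF (-0.94, adjusted p = 0.0811) were lower and did not pass the test. The part of these markers in the results was not tested. Since the RNA came from many cells together, fewer cells that hold a transcript and less of it per cell cannot be told apart.

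The sequences just before the start sites of TXNIP, DDIT4, DEPP1 and MXI1 are shown because these are the members that rose in hypoxia. Where a gene has several starts, a window with the paired element is shown, which was chosen after the matches were seen. They are the 250 bases before a RefSeq start on GRCh38.p14, 5′ to 3′ on the strand of the gene, and capitals mark matches to any of 4 motifs searched on both strands. The motifs were the E-box CACGTG, a paired E-box-like element (CACGNG, then CNCGNG after a gap of 5 bases), the hypoxia response element core ACGTG, which lies inside the E-box, and the FOXO core GTAAACA.
TXNIP, chr1:145996580-145996829, minus strand, first of 2 starts: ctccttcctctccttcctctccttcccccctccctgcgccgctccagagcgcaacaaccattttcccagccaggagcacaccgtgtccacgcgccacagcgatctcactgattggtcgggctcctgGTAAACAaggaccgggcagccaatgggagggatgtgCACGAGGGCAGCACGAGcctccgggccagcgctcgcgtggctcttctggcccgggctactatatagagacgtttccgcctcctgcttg
DDIT4, chr10:72273674-72273923, plus strand: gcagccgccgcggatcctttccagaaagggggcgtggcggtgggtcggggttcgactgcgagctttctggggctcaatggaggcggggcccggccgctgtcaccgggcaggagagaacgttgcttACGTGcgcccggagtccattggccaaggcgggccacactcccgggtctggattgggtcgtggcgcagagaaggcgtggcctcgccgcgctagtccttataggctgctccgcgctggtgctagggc
DEPP1, chr10:44978810-44979059, minus strand: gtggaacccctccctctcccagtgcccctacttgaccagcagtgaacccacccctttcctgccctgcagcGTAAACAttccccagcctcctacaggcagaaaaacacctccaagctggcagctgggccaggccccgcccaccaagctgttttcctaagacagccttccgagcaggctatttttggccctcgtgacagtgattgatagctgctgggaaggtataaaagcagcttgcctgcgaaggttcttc
MXI1, chr10:110209981-110210230, plus strand, start 2 of 3: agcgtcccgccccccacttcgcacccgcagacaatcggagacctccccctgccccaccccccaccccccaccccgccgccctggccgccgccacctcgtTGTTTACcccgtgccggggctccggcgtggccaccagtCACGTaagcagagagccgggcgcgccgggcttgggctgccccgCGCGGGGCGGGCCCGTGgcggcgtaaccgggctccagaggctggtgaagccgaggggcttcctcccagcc
The TXNIP window held the paired element as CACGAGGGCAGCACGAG, 88 to 72 bases before the start, and GTAAACA 124 to 118 bases before it. The paired element was in 0.424% of 35116 windows of this length over all RefSeq starts. Among the 18 windows of the 10 members it was in 2, the other being that of MXI1, where it reads on the opposite strand, 70 to 54 bases before the start. The DDIT4 window held ACGTG 125 to 121 bases before the start, a motif found in 18.5% of all windows and in 6 of the 18. The DEPP1 window held GTAAACA 180 to 174 bases before the start, a motif found in 2.98% of all windows and in 4 of the 18. The MXI1 window also held GTAAACA and ACGTG on the opposite strand, while the windows of its starts 1 and 3 held none of the motifs. The window of the other TXNIP start held ACGTG and no other motif. The E-box CACGTG, in 6.34% of all windows, was in those of ARRDC4, 210 to 205 bases before its start, and of MLX, 50 to 45 bases before. A match is a description of the letters and not a site shown to be bound.

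In hypoxia 4 of the 10 genes rose, TXNIP, DDIT4, DEPP1 and MXI1, and none fell. To be called, a gene had to pass an adjusted p of 0.05 in edgeR's quasi-likelihood test and differ by 0.5 or more on the log2 scale. By that rule 7.26% of the 21776 genes tested were called, with 5.83% higher and 1.43% lower in hypoxia. The groups did not overlap for 5 members, the called 4 and ARRDC2, beside 26.4% of all genes. The median log2 fold change was 0.12 over the members and 0.01 over all genes tested. The members were chosen with earlier results of these data known.

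In KO cells 4 of the 10 genes were higher than in WT normoxia, TXNIP, ARRDC2, DDIT4 and DEPP1, and none was called lower. Among 21410 genes tested, 9.67% were called, 6.73% higher and 2.94% lower. By the adjusted p alone, 5 members were higher and 1, MLX, was lower, where 14.9% of all genes were higher and 15.4% lower. The groups did not overlap for 7 members, beside 30.8% of all genes, and the median log2 fold change was 0.42 over the members and 0.01 over all genes. This comparison and the previous one share the 4 WT normoxia libraries, so their values are given side by side for each gene. The direct comparison of KO cells with hypoxia shares libraries with both. This comparison differs in genotype and in oxygen at once, and their parts cannot be told apart in it. It called ARRDC3 higher in KO cells and DDIT4, DEPP1 and MXI1 lower, where 15.0% of 21158 genes were called, 7.08% higher and 7.88% lower. By the adjusted p alone, 2 members were higher and 3 lower, beside 34.9% of all genes in either direction. The groups did not overlap for 6 members, beside 35.9% of all genes, and the median over the members was -0.01, against -0.02 over all genes.

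**Figure D1:**
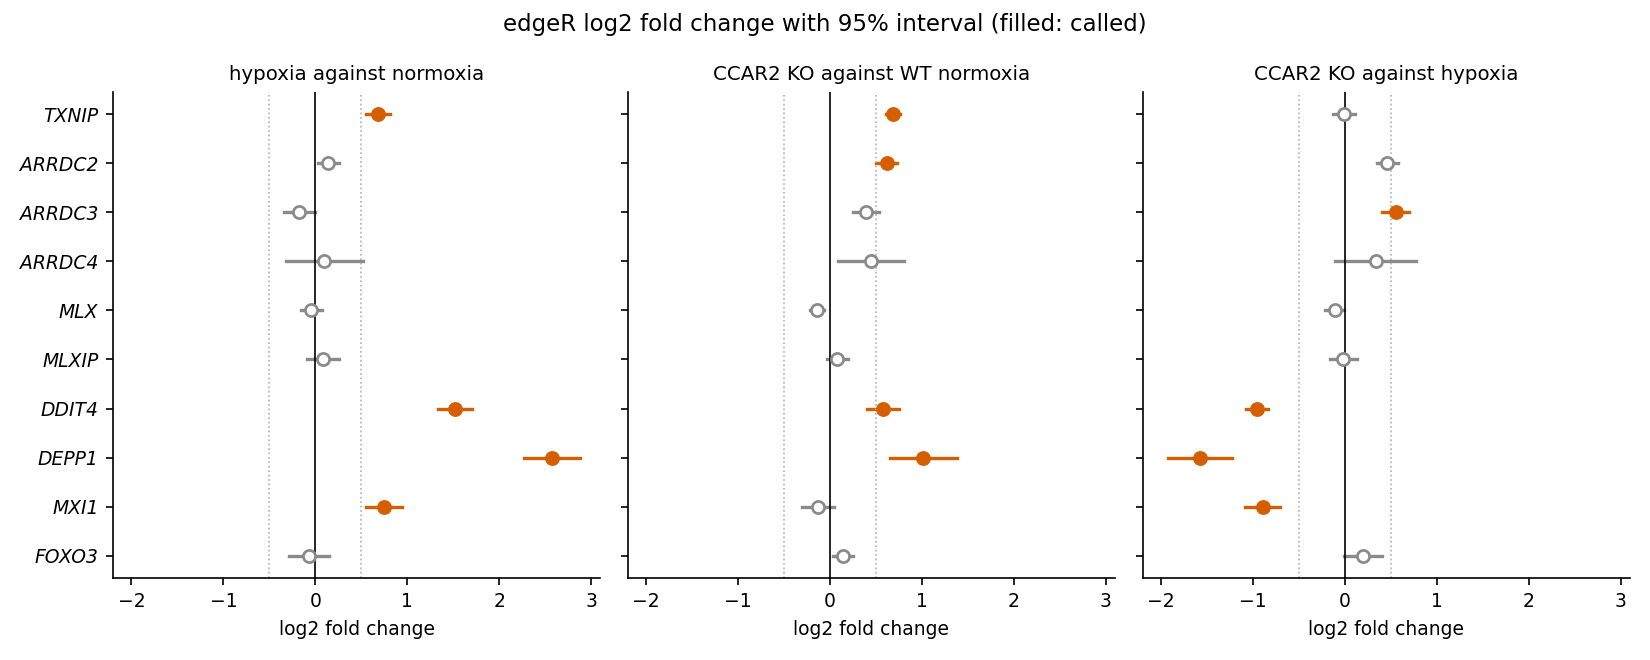
Log2 fold change of each of the 10 genes (points) with its 95% interval (lines) in the 3 comparisons, from edgeR, with filled points for called genes and dotted lines at the fold limit of 0.5 in either direction. DEPP1 has the highest value of the 10 in hypoxia, 2.58, and TXNIP lies at 0.68 in hypoxia and at 0.68 in KO cells.

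TXNIP (ENSG00000265972, chr1:145992435-145996600, minus strand) was at 80.4, 81.0, 81.2 and 78.0 CPM in the 4 WT normoxia libraries. In hypoxia it was at 135, 140.0, 121 and 120.4 CPM. In KO cells it was at 132, 128, 127 and 128 CPM. Every hypoxia and every KO library was above every WT normoxia library, and the KO values lay inside the range of the hypoxia values. The fold was 1.604 in hypoxia (log2 fold change 0.68, SE 0.06, adjusted p = 4.428e-05) and 1.61 in KO cells (0.68, SE 0.03, adjusted p = 4.524e-08). Set against each other, KO and hypoxia differed by -0.01 on the log2 scale (95% interval -0.13 to 0.11, adjusted p = 0.934). That interval leaves room for a small difference in either direction, and its sign turned in limma-voom and when hypoxia replicate 1 or 2 was left out. In hypoxia the 2 libraries with the lower sums held the higher TXNIP values. With the 2 hypoxia libraries of highest sum alone, TXNIP was still called against normoxia at a log2 fold change of 0.59, and KO was above hypoxia by 0.09 (adjusted p = 0.126).

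ARRDC2 (ENSG00000105643, chr19:18001132-18014102, plus strand), a less studied relative of TXNIP, rose in KO cells. Its levels were 34.8, 39.0, 37.6 and 38.7 CPM in WT normoxia and 40.8, 40.6, 42.3 and 43.0 CPM in hypoxia. They were 53.3, 57.7, 59.0 and 60.04 CPM in KO cells. The 3 groups did not overlap, with KO cells highest. KO exceeded WT normoxia by 0.62 on the log2 scale (SE 0.05, adjusted p = 4.119e-06). It exceeded hypoxia by 0.46 (SE 0.05, adjusted p = 4.643e-05), which is under the fold limit, and reached 0.5002 without KO replicate 1. Hypoxia differed from normoxia by 0.14 (SE 0.05, adjusted p = 0.0769), which did not pass the test.

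ARRDC3 (ENSG00000113369, chr5:91368724-91383359, minus strand) encodes an adaptor known for the ubiquitination of beta-adrenergic receptors and integrin beta 4. It was at 22.4, 18.9, 20.4 and 20.4 CPM in WT normoxia and at 17.9, 20.4, 17.6 and 17.3 CPM in hypoxia. The KO libraries were at 28.3, 27.3, 25.6 and 26.7 CPM. All KO values were above all WT values, while normoxia and hypoxia overlapped. Hypoxia differed from normoxia by -0.17 on the log2 scale (adjusted p = 0.126). KO exceeded hypoxia by 0.56 (SE 0.07, adjusted p = 7.44e-05) and was called. KO exceeded WT normoxia by 0.39 (SE 0.06, adjusted p = 5.435e-04), under the fold limit.

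ARRDC4 (ENSG00000140450, chr15:97960698-97973838, plus strand), another known target of MondoA, was at a low level. It had 1.16, 1.29, 0.967 and 1.13 CPM in WT normoxia, 1.04, 1.27, 1.599 and 0.982 CPM in hypoxia and 1.33, 1.69, 1.33 and 1.87 CPM in KO cells. The KO values were above all WT normoxia values and overlapped those of hypoxia. None of its comparisons passed the test. The log2 fold changes were 0.10 for hypoxia (95% interval -0.32 to 0.52, adjusted p = 0.767), 0.45 for KO against WT normoxia (0.09 to 0.81, adjusted p = 0.0593) and 0.34 for KO against hypoxia (-0.10 to 0.78, adjusted p = 0.231). Its counts were between 80 and 263 per library, the lowest of the 10 genes on average.

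**Figure D2:**
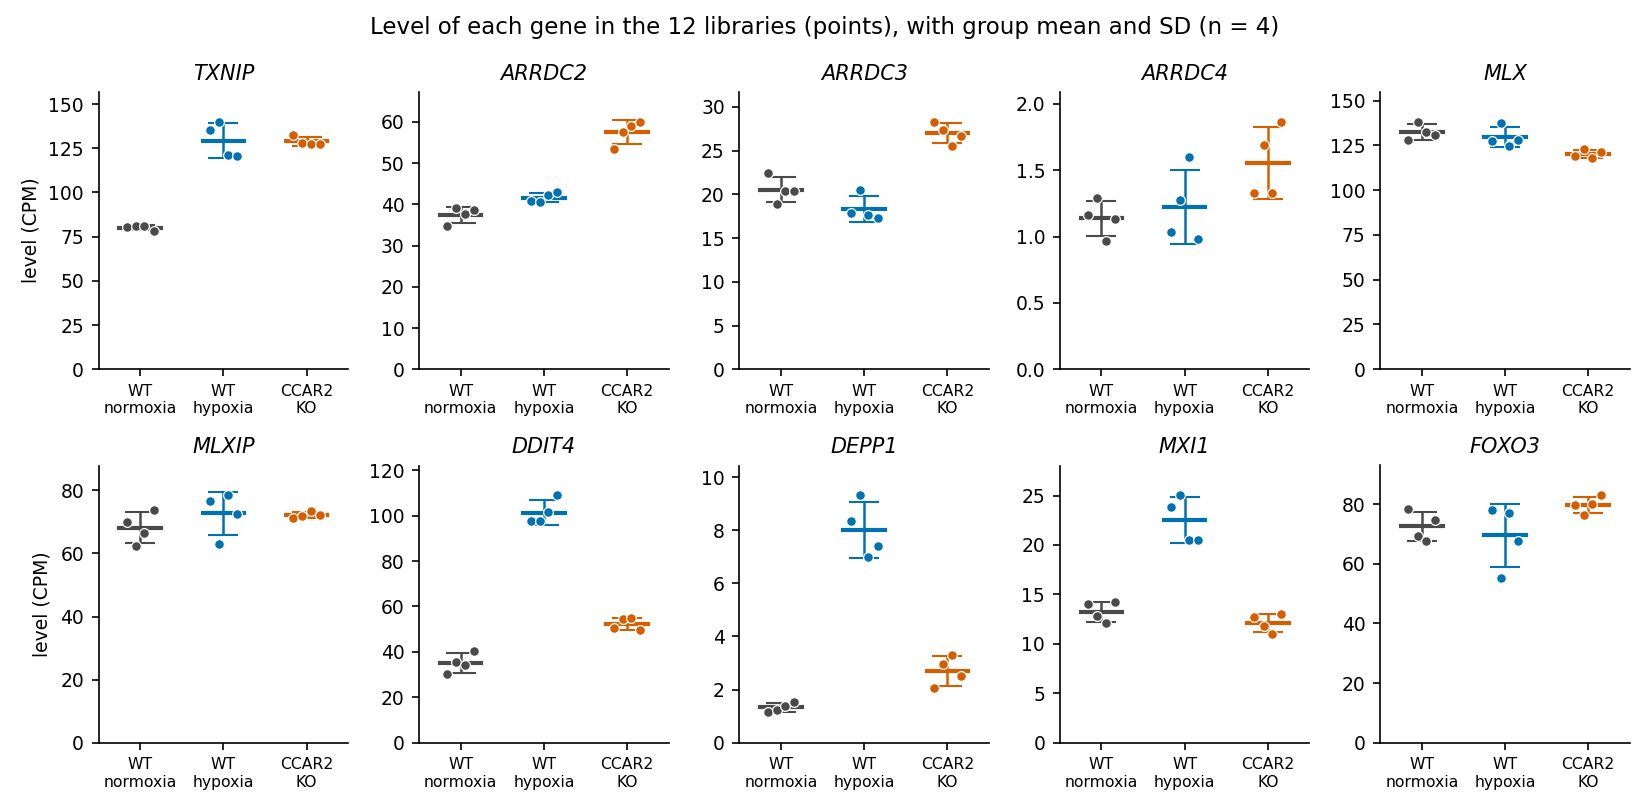
Level of each of the 10 genes in CPM (vertical axes, each from 0) in every library of WT normoxia, WT hypoxia and CCAR2 KO (points), with the group mean (thick bar) and SD (whiskers, n = 4). TXNIP is at about the same mean in hypoxia and KO cells, 129 CPM in both, while MXI1 is higher in hypoxia alone, at 22.5 CPM against 13.3 and 12.1 CPM.

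Per length, TXNIP was the most abundant of these 4 genes in every library. Lengths were all exonic bases of a gene, and the level is then RPKM, the CPM divided by that length in kilobases. TXNIP took 64.3%, 64.0%, 64.2% and 62.8% of the summed RPKM of TXNIP, ARRDC2, ARRDC3 and ARRDC4 in WT normoxia. Its share was 74.6%, 74.5%, 71.9% and 71.9% in hypoxia, and 67.5%, 65.8%, 65.8% and 65.2% in KO cells. The 3 groups did not overlap, and the share of this sum was highest in hypoxia. ARRDC1, an alpha-arrestin outside the 10 genes, was not in the sum. Its means were 10.9 RPKM in WT normoxia, 14.0 RPKM in hypoxia and 10.6 RPKM in KO cells. A share with ARRDC1 was not tested, so the order of the groups holds for these 4 genes alone. The TXNIP share was higher in hypoxia than in normoxia by 9.41 percentage points, and KO minus hypoxia was -7.15 points. In KO cells it was above WT normoxia by 2.26 points. In the two-sided exact permutation test each of the 3 differences had p = 0.0286, the smallest that 4 libraries against 4 allow, and 0.0286 after Benjamini-Hochberg adjustment over the 3. The difference between KO cells and WT normoxia no longer passed with the mean length of coding transcripts (1.81 points, exact p = 0.0571). It also no longer passed without WT normoxia replicate 4 (1.91 points, exact p = 0.0571), although the groups still did not overlap. It passed without each of the other libraries in turn.

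**Figure D3:**
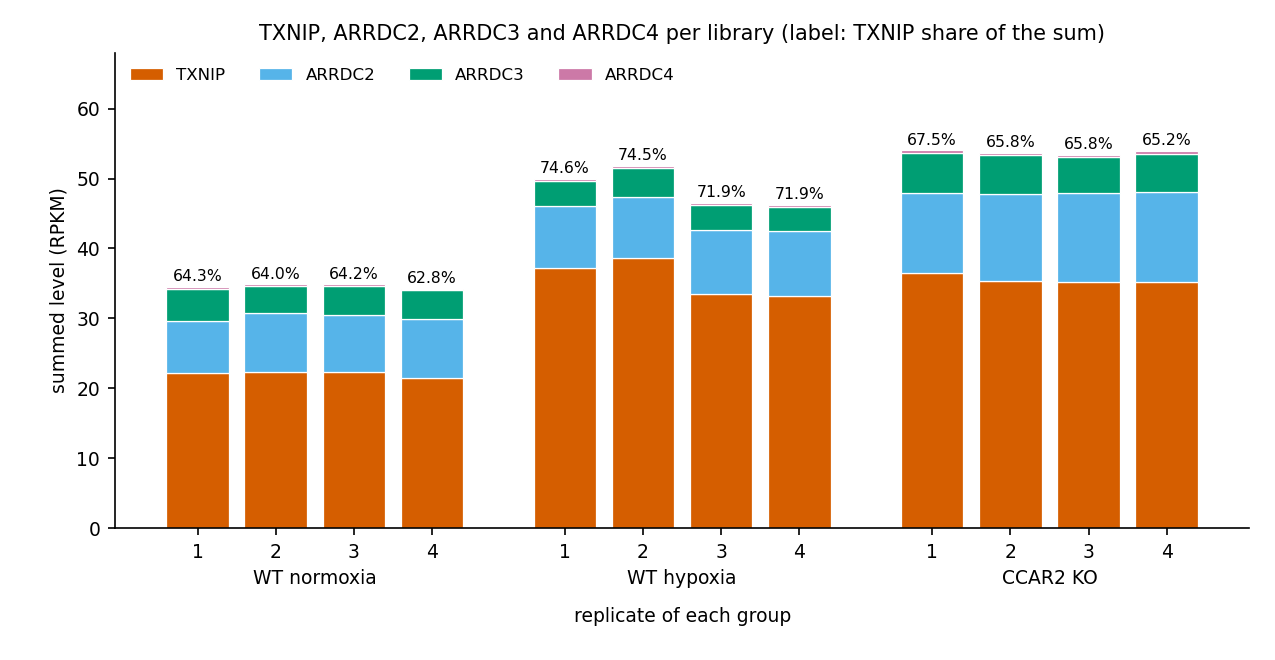
Summed level in RPKM of TXNIP, ARRDC2, ARRDC3 and ARRDC4 (stacked bars) in each of the 12 libraries, with the TXNIP share of the sum in percent above each bar. Hypoxia bars hold more TXNIP with little change in the other genes, and in KO bars ARRDC2 and ARRDC3 are also higher than in WT normoxia.

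MLX (ENSG00000108788, chr17:42567068-42573239, plus strand), the DNA-binding partner of MondoA, changed little. It was at 128, 138, 133 and 131 CPM in WT normoxia, at 128, 138, 125 and 128 CPM in hypoxia and at 119, 123, 118 and 121 CPM in KO cells. The KO values were below all WT values. KO differed from WT normoxia by -0.14 on the log2 scale (SE 0.04, adjusted p = 0.0120), far under the fold limit, and hypoxia by -0.04 (95% interval -0.15 to 0.07, adjusted p = 0.619). MLX shares 770 exonic bases with PSMC3IP on the opposite strand, which was at 29.1, 26.3 and 25.8 CPM on average in the 3 groups. The sources used here do not say whether counting used strand.

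MLXIP (ENSG00000175727, chr12:122078722-122147347, plus strand), which encodes MondoA, was at 70.1, 62.3, 66.5 and 73.9 CPM in WT normoxia. Hypoxia libraries were at 76.8, 63.0, 78.4 and 72.6 CPM and KO libraries at 71.1, 72.01, 73.3 and 72.1 CPM. The 3 groups overlapped. The log2 difference was 0.08 for hypoxia (95% interval -0.09 to 0.25, adjusted p = 0.491) and 0.08 for KO cells (-0.03 to 0.19, adjusted p = 0.279). These intervals leave out a change in MLXIP RNA of the size seen for TXNIP RNA in the same comparisons. The MondoA protein and its activity were not measured, and its part in the TXNIP change was not tested.

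MXI1 (ENSG00000119950, chr10:110207605-110287365, plus strand) rose in hypoxia and not in KO cells. It was at 14.0, 12.8, 12.1 and 14.2 CPM in WT normoxia, at 23.9, 25.03, 20.5 and 20.5 CPM in hypoxia and at 12.7, 11.9, 10.95 and 13.0 CPM in KO cells. Every hypoxia library was above all libraries of the other groups, which overlapped each other. The fold in hypoxia was 1.69 (log2 fold change 0.75, SE 0.09, adjusted p = 2.684e-04). KO was below hypoxia, with a log2 difference of -0.89 (SE 0.09, adjusted p = 1.491e-05), and differed from WT normoxia by -0.13 (95% interval -0.30 to 0.04, adjusted p = 0.259). As for TXNIP, hypoxia replicates 1 and 2, which had the lower sums, held the higher values. With the other 2 hypoxia libraries alone the log2 fold change was 0.62 and was still called.

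DDIT4 (ENSG00000168209, chr10:72273920-72276036, plus strand) rose 2.87-fold in hypoxia. It was at 30.3, 35.5, 34.2 and 40.5 CPM in WT normoxia, at 97.4, 97.5, 101 and 109 CPM in hypoxia and at 50.7, 54.3, 54.98 and 49.7 CPM in KO cells. The 3 groups did not overlap, and KO cells lay between normoxia and hypoxia. The log2 fold change was 1.52 in hypoxia (SE 0.08, adjusted p = 1.592e-06) and 0.58 in KO cells (SE 0.08, adjusted p = 1.515e-04). KO was below hypoxia by a log2 difference of -0.96 (SE 0.06, adjusted p = 2.615e-07). Without 1 library at a time, the KO value ranged from 0.51 to 0.65 and was called each time. DDIT4 shares 847 of its 2058 exonic bases with DDIT4-AS1 on the opposite strand, which was not analysed here, and without strand reads from the shared bases cannot be told apart, so the DDIT4 values are uncertain.

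DEPP1 (ENSG00000165507, chr10:44970981-44978810, minus strand) had the largest fold change of the 10 genes in hypoxia, from a low level. It was at 1.16, 1.23, 1.40 and 1.55 CPM in WT normoxia, at 8.36, 9.32, 6.97 and 7.41 CPM in hypoxia and at 2.05, 2.96, 3.31 and 2.498 CPM in KO cells. The order was the same as for DDIT4, with KO cells between the other groups and no overlap. The fold was 5.96 in hypoxia (log2 fold change 2.58, SE 0.14, adjusted p = 1.333e-06) and 2.02 in KO cells (1.01, SE 0.17, adjusted p = 6.235e-04). KO was below hypoxia by a log2 difference of -1.57 (SE 0.16, adjusted p = 1.881e-05). DEPP1 shares 695 of its 2979 exonic bases with RASSF4 on the opposite strand. RASSF4 itself had means of 4.89 CPM under normoxia, 23.0 CPM under hypoxia and 6.78 CPM in KO cells, with log2 fold changes of 2.23 in hypoxia (adjusted p = 9.593e-08) and 0.47 in KO cells (adjusted p = 0.00321). Without strand, reads from the shared bases cannot be told apart, so the DEPP1 values are uncertain.

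FOXO3 (ENSG00000118689, chr6:108559835-108684774, plus strand), the transcription factor, passed no test. It was at 78.5, 69.4, 67.8 and 74.5 CPM in WT normoxia, at 78.1, 55.2, 77.2 and 67.6 CPM in hypoxia and at 79.9, 76.2, 80.1 and 83.0 CPM in KO cells. Hypoxia replicate 2 was the lowest library, and the 3 groups overlapped. The log2 difference was -0.07 in hypoxia (95% interval -0.29 to 0.15, adjusted p = 0.681) and 0.14 in KO cells (0.03 to 0.25, adjusted p = 0.0583). FOXO3B, a near-identical copy, had a mean count of 666 against 10693 for FOXO3, and hypoxia replicate 2 was also its lowest library, at 2.24 CPM. The counting could split reads between the copies.

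Per length, the order of the 10 genes changed between groups. In WT normoxia MLX led at 31.1 ± 0.989 RPKM, followed by TXNIP at 22.1 ± 0.408 and DDIT4 at 17.1 ± 2.05 RPKM. In hypoxia DDIT4 led at 49.2 ± 2.65 RPKM, followed by TXNIP at 35.7 ± 2.71 and MLX at 30.4 ± 1.32 RPKM. In KO cells TXNIP led at 35.5 ± 0.645 RPKM, followed by MLX at 28.2 ± 0.515 and DDIT4 at 25.5 ± 1.26 RPKM. These 3 genes did not overlap each other in any group. Next came FOXO3, ARRDC2, MLXIP, ARRDC3 and MXI1, between 2.63 and 12.4 RPKM. Of the neighbours in the order, MLXIP overlapped ARRDC3 in normoxia and in KO cells, and in hypoxia FOXO3 overlapped ARRDC2 and MLXIP overlapped MXI1. ARRDC4 was last in each group, at 0.279, 0.3002 and 0.382 RPKM, and DEPP1 was next to last, at 0.448, 2.69 and 0.907 RPKM. The order depends on the length used. With the mean length of coding transcripts, MLXIP, whose exonic bases number 13905, was the third in normoxia at 22.6 RPKM, and MLX, TXNIP and DDIT4 at 63.6, 62.3 and 58.0 RPKM in hypoxia overlapped as neighbours.

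**Figure D4:**
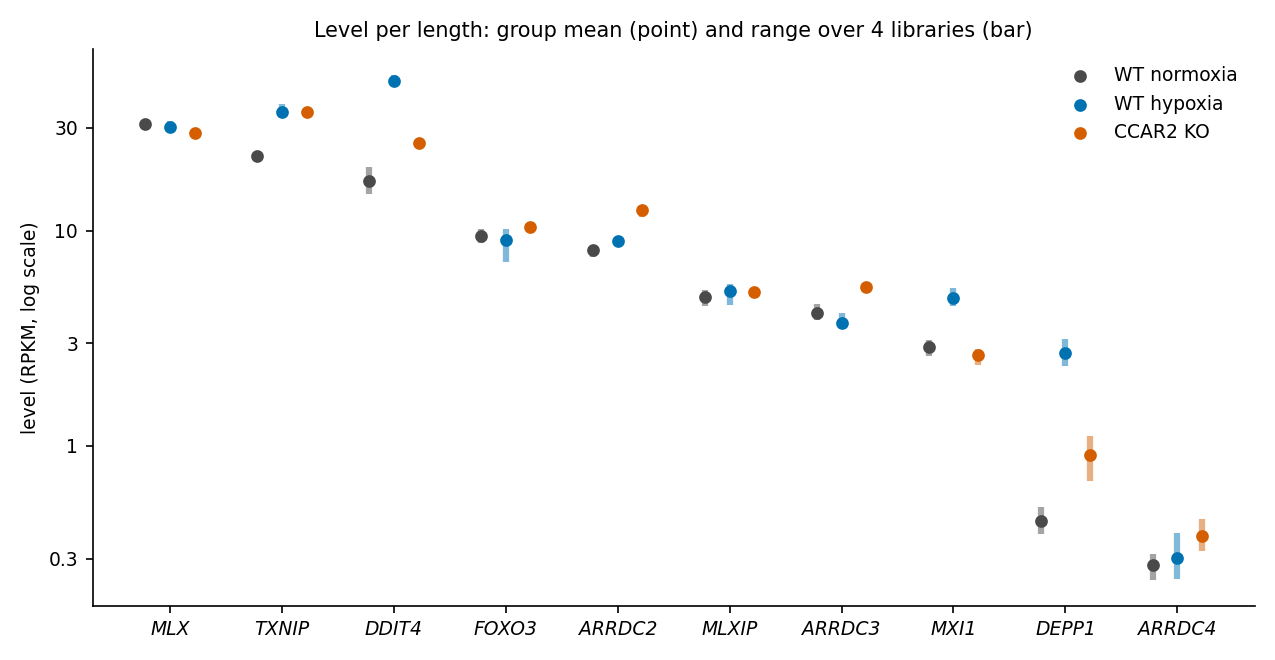
Level per length in RPKM on a log axis for the 10 genes in the order of WT normoxia, with the mean of each group (point) and the range of its 4 libraries (bar). DDIT4 goes from 17.1 RPKM in normoxia to 49.2 RPKM in hypoxia, above TXNIP and MLX, and ARRDC4 stays lowest in all groups.

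Other genes of the same pathways were read from fixed lists, which include the members. Over all genes tested, 7.26% were called in hypoxia, 9.67% in KO cells against WT normoxia and 15.0% in KO cells against hypoxia. The counts of called genes in the lists stand beside these shares, and no list was tested as a set. Of the 6 alpha-arrestins, 5 were tested (ARRDC5 was not). Of these TXNIP rose in hypoxia and TXNIP and ARRDC2 in KO cells, with list medians of 0.14 and 0.45 on the log2 scale. ARRDC1, with 41.5 CPM under normoxia and 53.4 CPM under hypoxia, had a log2 difference of 0.36 in hypoxia (adjusted p = 0.00220), under the fold limit.

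Of 12 genes of the MAX and MLX network tested, 3 were called higher in hypoxia and 2 in KO cells, and none was called lower in either. By the adjusted p alone MAX was lower in hypoxia (-0.23, adjusted p = 0.0119), and MYC (-0.23, adjusted p = 0.00253) and MLX were lower in KO cells. MNT, a MAX partner that opposes MYC, rose from 22.2 CPM in normoxia to 33.2 CPM in hypoxia (log2 fold change 0.57, SE 0.08, adjusted p = 7.68e-04) and to 33.4 CPM in KO cells (0.59, SE 0.07, adjusted p = 6.854e-05). MXI1 and MLXIPL were the others called in hypoxia. MLXIPL (ChREBP), the other glucose-sensing partner of MLX, went from 0.607 to 1.19 CPM (0.96, adjusted p = 0.0185), a call lost at 0.69 (adjusted p = 0.110) with the 2 hypoxia libraries of highest sum alone. MXD1, another MAX partner, was the other gene called in KO cells, at 14.1 CPM against 9.56 CPM in WT normoxia (0.56, SE 0.07, adjusted p = 4.972e-05). It was also higher than in hypoxia (0.78, adjusted p = 6.998e-05), where MXI1 was lower. The medians of the list were 0.05 in hypoxia and -0.02 in KO cells.

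Of 18 genes that act as brakes on mTORC1, DDIT4 rose and SESN3 fell in hypoxia, beside 7.26% of all genes called. In KO cells 3 rose and 2 fell, beside 9.67% of all genes. SESN3, a sestrin, had means of 1.34 CPM under normoxia, 0.823 CPM under hypoxia and 3.13 CPM in KO cells. Its log2 fold change was -0.71 in hypoxia (SE 0.18, adjusted p = 0.0166) and 1.23 in KO cells (SE 0.18, adjusted p = 2.577e-04). The hypoxia call was lost without WT normoxia replicate 1 (-0.61, adjusted p = 0.0508) and with the 2 hypoxia libraries of highest sum alone (-0.52, adjusted p = 0.0766). CASTOR1, an arginine sensor, rose in KO cells to 3.59 CPM from 2.26 CPM (0.67, SE 0.18, adjusted p = 0.0122). DDIT4L, a paralog of DDIT4, fell in KO cells to 0.850 CPM from 1.56 CPM (-0.89, SE 0.19, adjusted p = 0.00349). PRKAA2, a catalytic subunit of the energy sensor AMPK, was also lower, at 13.9 CPM against 21.0 CPM (-0.59, SE 0.07, adjusted p = 6.274e-05). KO cells against hypoxia had 4 of the 18 higher, among them SESN3 (1.91) and SESN2 (0.56), and 3 lower, DDIT4, DDIT4L (-1.14) and PRKAA2 (-0.59). The medians of the list were -0.04 in hypoxia and 0.01 in KO cells.

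Of 20 FOXO factors and classic FOXO targets, 1 rose and 1 fell in hypoxia, DEPP1 and SESN3, beside 7.26% of all genes called. In KO cells 4 rose and 1 fell, beside 9.67% of all genes. Those higher in KO cells were DEPP1, SESN3, FOXO4 and PIK3IP1, an inhibitor of PI3K. PIK3IP1 had a log2 fold change of 0.54 (SE 0.16, adjusted p = 0.0201), a call lost on leaving out any of 5 single libraries, WT normoxia replicates 1 and 2 and KO replicates 2, 3 and 4, with values between 0.44 and 0.52. FOXO6, a FOXO factor, was the one lower, at 0.429 CPM against 1.17 CPM in WT normoxia (-1.42, SE 0.23, adjusted p = 6.353e-04), and it was also lower than in hypoxia (-1.54). KLHL24 was higher in KO cells than in hypoxia, at 15.9 CPM against 8.91 CPM (0.83, SE 0.07, adjusted p = 3.663e-06). Against WT normoxia KLHL24 was at -0.45 in hypoxia (adjusted p = 0.00574) and 0.39 in KO cells (adjusted p = 0.0031), both under the fold limit. The medians of the list were -0.02 in hypoxia and 0.16 in KO cells.

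Of 14 genes of the thioredoxin system and glucose uptake, 3 rose in hypoxia and 1 in KO cells, with medians of 0.30 and 0.01. HK2, a hexokinase that traps glucose in the cell, rose from 88.1 to 176 CPM in hypoxia (log2 fold change 0.99, SE 0.07, adjusted p = 8.647e-06) and was at 98.1 CPM in KO cells. The glucose transporter SLC2A3 (GLUT3) rose from 38.5 to 61.2 CPM in hypoxia (0.66, SE 0.06, adjusted p = 7.928e-05) and to 58.6 CPM in KO cells (0.61, SE 0.05, adjusted p = 1.468e-06). SLC2A1 (GLUT1) was the other gene called in hypoxia (0.62, adjusted p = 3.696e-05). In KO cells it was also higher (0.44, adjusted p = 3.202e-06), under the fold limit. TXNRD1, thioredoxin reductase, was higher in KO cells than in hypoxia, at 417 CPM against 279.7 CPM (0.57, SE 0.05, adjusted p = 4.304e-06). In that comparison HK2 (-0.85) and the inflammasome sensor NLRP3 (-0.61) were lower. Against WT normoxia TXNRD1 was at -0.37 in hypoxia (adjusted p = 4.288e-04) and 0.22 in KO cells (adjusted p = 0.00271), both under the fold limit. Of 9 NEDD4-family ligases none was called in hypoxia by edgeR, where by the adjusted p alone 3 were lower and none was higher, beside 23.5% of all genes in either direction. By the same rule 4 ligases were higher and 3 lower in KO cells than in WT normoxia, beside 30.4% of all genes. NEDD4 itself was lower in KO cells, at 67.7 CPM against 111 CPM (-0.71, SE 0.06, adjusted p = 3.657e-06). It was also among the ligases lower in hypoxia by the adjusted p alone, at 83.2 CPM (-0.42, adjusted p = 8.894e-04). HECW2 was higher in KO cells than in hypoxia (0.81, adjusted p = 0.00254). Against WT normoxia HECW2 was at -0.38 in hypoxia (adjusted p = 0.134) and 0.44 in KO cells (adjusted p = 0.0188). The medians of that list were -0.15 in hypoxia and 0.14 in KO cells.

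The genes whose pattern was most like that of TXNIP were named by Pearson correlation of log2 CPM over the 12 libraries, which fall into 3 groups and were scaled together, among 14682 genes with enough counts. They were SLC22A18 (r = 0.969), ADAM8 (0.968), SLC2A3 (0.964), CCL28 (0.963) and ZNF70 (0.956). Their log2 fold changes in hypoxia and in KO cells were 0.97 and 1.11 for SLC22A18, 1.13 and 1.23 for ADAM8, 0.79 and 0.72 for CCL28, and 0.46 and 0.40 for ZNF70. KO minus hypoxia was between -0.09 and 0.14 for these 5 genes, and -0.01 for TXNIP. The 5 genes were chosen for their likeness to TXNIP in the same libraries. That they change as TXNIP does therefore follows from the choice and is not a separate result. ZNF70 was under the fold limit in both.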

How the data were processed

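MDA-MB-231 RNA was sequenced in 12 libraries, 4 per group, grouped by the genotype and treatment in their labels. The table deposited by the authors holds expected counts for each gene, as whole numbers with no scaling to library size. By the methods the authors cleaned reads, aligned them with Hisat2, quantified them with StringTie and compared groups with DESeq2, while the submitters' processing notes name HISAT2, SAMtools and featureCounts. Which counter made the table, its build and annotation and its use of strand are not given in the sources used here. Sums are therefore not taken as read numbers. The methods name biological triplicates for extraction and biological duplicates per condition for the test of expression, while the labels list 4 libraries per group. How many biological replicates stand behind the 4 libraries is therefore not known. The methods also name another extraction and library kit than the labels do.

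Here each pair of groups was fitted on the counts of all genes with edgeR 4.0.16 in R 4.3.3 (TMM, filterByExpr, glmQLFit, glmQLFTest, Benjamini-Hochberg adjustment). The limits for a call were those of the study, 0.05 for the adjusted p and 0.5 for the size of the log2 fold change. CPM used TMM over the 12 libraries. Gene positions and lengths come from GENCODE 29 on GRCh38 (58396 of 60664 identifiers matched), and promoter windows from RefSeq on GRCh38.p14, where all 10 members matched, with 18 windows. For the TXNIP shares an exact two-sided permutation test was used. The alternatives were DESeq2 1.42.0, limma-voom (limma 3.58.1), upper-quartile and RLE normalization, a replicate block, a single fit of all 12 libraries, no filter or a minimum of 10 counts per library, no fold limit, leaving out each library in turn, for the share another length and CPM in place of RPKM, and, added after seeing the data, the 2 hypoxia libraries of highest sum alone.

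The members and lists were chosen with earlier results of these data known. All 10 members are named. From each list and comparison the rule took up to the 2 highest and 2 lowest called genes with a mean of at least 100 counts, then CCAR2, CA9 and the 5 genes closest to TXNIP. ARRDC1, MAX, MYC, FOXO4, SLC2A1, RASSF4, PSMC3IP, FOXO3B and the marker genes named singly were chosen after their values were seen. Replicates of a group had a chi-square of 14.0 to 97.6 per degree of freedom, and none was merged. On simulated data for hypoxia against normoxia (21776 genes), edgeR recovered 83% of genes changed by 1 and 98% of those changed by 2 on the log2 scale, with 11 false calls. The changed genes were drawn only from genes above a limit on the mean count. Changes smaller than 1 were not simulated, so recovery of changes as small as that of TXNIP is not known.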

Additional observations from a re-analysis of the deposited data

Results flagged for a closer look

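In each group of 4 libraries, the gap of the highest or lowest library to its neighbour in log2 CPM (for the share, in percent) was divided by the range of the group and set against Dixon's 95% critical value. Of 105 groups examined, 4 passed, where chance gives about 1 in 20, or 5.25. TXNIP in KO replicate 1 had a ratio of 0.8556, with 132.3 CPM against 128.1 CPM in the nearest library. The TXNIP share in WT normoxia replicate 4 had a ratio of 0.8365, at 62.8%. TXNRD1 in KO replicate 1 had a ratio of 0.8883, with 447.2 CPM against 409.7 CPM. PIK3IP1 in hypoxia replicate 1 had a ratio of 0.8393, with 1.772 CPM against 2.334 CPM. The causes were not tested.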

How the results depend on the processing

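Of 530 alternative values of the members, 517 kept their direction and their side of the threshold, 4 gained a call and 9 turned sign, and none lost a call. The 9 were all near 0. They were MLX in hypoxia with upper-quartile normalization (0.0097), FOXO3 in hypoxia without hypoxia replicate 2 (0.0213) and ARRDC4 in hypoxia without hypoxia replicate 3 (-0.0603). Over all libraries left out in turn, FOXO3 ranged from -0.1284 to 0.0213 and ARRDC4 from -0.0603 to 0.1978. For KO against hypoxia they were TXNIP in limma-voom (0.0011), with the 2 hypoxia libraries of highest sum alone (0.0907) and without hypoxia replicate 1 (0.0139) or 2 (0.0315), and MLXIP without hypoxia replicate 1 (0.0109) or 3 (0.026), with ranges of -0.0407 to 0.0315 for TXNIP and -0.0789 to 0.026 for MLXIP. The causes were not tested. By the adjusted p-value alone, which has no fold limit, 2518 genes were higher and 2609 lower in hypoxia, 3199 and 3307 in KO against WT normoxia, and 3628 and 3762 in KO against hypoxia. ARRDC3 was then also higher and MLX lower in KO against WT normoxia (1 member lower), and ARRDC2 higher in KO against hypoxia (2 members higher). Upper-quartile normalization left 192 genes lower in hypoxia against 312. Leaving out 1 library at a time, members higher in KO against hypoxia ranged from 1 to 2, and the TXNIP share in KO against WT normoxia from 1.775 to 2.556 points. That share difference was 1.805 points with the mean length of coding transcripts.

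Deviations of libraries with the same replicate number correlated between -0.025 and 0.065, so no pairing by number was seen. Libraries with different numbers were not compared in this way, so this cannot decide whether same-numbered libraries were handled together. With a replicate block, TXNIP was at 0.6786 in hypoxia and 0.6847 in KO cells, the members called were 4 higher and 0 lower in each, and the block changed no call of a member. Depth limits ARRDC4 most, with 80 to 263 counts per library.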
